A study of Mus musculus with 9 samples.

Results

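The subject here is the retained introns of the mouse epididymis initial segment, the part nearest the testis, at 4 weeks of age. A retained intron is one that stays in the polyadenylated transcript where a spliced form of the same gene lacks it. The deposited event tables list a pair of forms for such an intron, the form that keeps it and the form that removes it, each with its level in FPKM (fragments per kilobase of transcript, scaled to the mapped fragments of the library). All pairs listed in any of the 9 libraries were collected, which gave 7086 introns out of 139067 distinct splicing and exon events of all types. The 3829 introns (54.0%) whose 2 forms summed to 1 FPKM or more in every library were kept, and they lie in 2586 genes. The other 3257 introns fell below that sum in at least 1 library and were not tested. At the edge of the filter, intron 3 of Kif2c and intron 2 of Srsf4 passed with a lowest sum just over 1 FPKM, and intron 15 of Tle2 and intron 16 of Tyro3 did not, with lowest sums of 0.997 and 0.998 FPKM. The retained share used throughout is the FPKM of the retained form as a percentage of the sum of both forms, and a form that a library does not list was read as 0.

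The 3 groups are Mst1/2 dKO, Mst1/2; Yap tKO and WT initial segments on the C57BL/6 strain, with 3 libraries each. The dKO and the tKO both lack Mst1 and Mst2, the tKO lacks Yap as well, and the WT group is named as the control in the study's design. How the alleles were deleted, and in which cells, is not stated in these sources. The libraries are numbered 1 to 3 but are not stated to come from separate animals, so all p-values measure the spread between these libraries, which may be technical. RNA was treated with DNase I and selected with oligo(dT) before library preparation, and the comparisons ask which introns, and what share of them in all, were kept in each genotype.

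Introns are removed by the spliceosome, which recognises short sequences at the beginning and end of the intron. An intron that stays in often holds the transcript in the nucleus, or adds a stop codon that exposes it to nonsense-mediated decay, so retention usually lowers the amount of protein a gene makes. Genes of the splicing machinery itself, above all the SR proteins and the Clk kinases that phosphorylate them, are textbook hosts of such introns in many mammalian tissues. Mst1 and Mst2, encoded by Stk4 and Stk3, are the Hippo pathway kinases that restrain the transcriptional coactivator Yap, and the initial segment is known for principal cells that secrete the proteins sperm meet first.

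Sequences are shown for 3 sets of introns on which the results turn, read from GENCODE M21 transcripts on GRCm38 that hold the intron inside an exon, 5′ to 3′ on the transcribed strand. Coordinates are those of the event tables, whose build no source used here names and whose intron ends were matched to GENCODE M21. The first set holds 4 introns that lie inside an exon of an annotated protein-coding transcript and were retained at close to 100% in every library. They are the ones in Hsp90ab1, which encodes a cytosolic HSP90 chaperone (chr17:45571482-45571518, minus strand), Ftl1, the ferritin light chain (chr7:45459123-45459191, minus strand), Bsg, the membrane glycoprotein basigin (chr10:79710725-79710839, plus strand), and Enpp5, an ectonucleotide phosphodiesterase family member (chr17:44080775-44080937, plus strand). The second set holds 6 introns whose shares are described below by genotype: Rgl3 (chr9:21976978-21977189, minus strand), Chkb (chr15:89428545-89428713, minus strand), Donson (chr16:91682621-91682742, minus strand), Arrdc1 (chr2:24926195-24926271, minus strand), Tap2 (chr17:34212068-34212229, plus strand) and the SR protein gene Srsf7 (chr17:80205082-80205261, minus strand). Capitals mark the first 2 and last 2 bases of each intron.
Hsp90ab1 intron 3: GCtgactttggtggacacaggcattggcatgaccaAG
Ftl1 intron 2: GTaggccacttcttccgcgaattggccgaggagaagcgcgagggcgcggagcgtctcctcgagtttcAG
Bsg intron 5: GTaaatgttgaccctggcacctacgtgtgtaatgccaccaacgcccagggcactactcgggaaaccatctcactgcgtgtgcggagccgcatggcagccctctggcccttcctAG
Enpp5 intron 2: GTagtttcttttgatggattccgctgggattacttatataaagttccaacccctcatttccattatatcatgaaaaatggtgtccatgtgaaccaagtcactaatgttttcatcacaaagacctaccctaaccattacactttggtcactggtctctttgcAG
Rgl3 intron 11: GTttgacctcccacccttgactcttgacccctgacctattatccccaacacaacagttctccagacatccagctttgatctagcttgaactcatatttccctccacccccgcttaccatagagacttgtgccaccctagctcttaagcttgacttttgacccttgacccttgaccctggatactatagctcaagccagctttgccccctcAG
Chkb intron 3: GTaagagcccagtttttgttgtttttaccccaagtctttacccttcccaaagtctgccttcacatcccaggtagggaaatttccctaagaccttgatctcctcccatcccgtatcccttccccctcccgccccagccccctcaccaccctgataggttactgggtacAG
Donson intron 6: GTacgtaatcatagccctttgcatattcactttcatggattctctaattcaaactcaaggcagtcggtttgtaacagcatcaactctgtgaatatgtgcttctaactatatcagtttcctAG
Arrdc1 intron 6: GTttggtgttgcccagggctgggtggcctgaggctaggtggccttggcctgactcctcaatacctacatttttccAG
Tap2 intron 6: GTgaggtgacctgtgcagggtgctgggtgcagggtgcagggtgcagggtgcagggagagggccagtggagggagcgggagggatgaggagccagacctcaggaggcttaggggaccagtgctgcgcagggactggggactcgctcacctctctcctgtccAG
Srsf7 intron 3: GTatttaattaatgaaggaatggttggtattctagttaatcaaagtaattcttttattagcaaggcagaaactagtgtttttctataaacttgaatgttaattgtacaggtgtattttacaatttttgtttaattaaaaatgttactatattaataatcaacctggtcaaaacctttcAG

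The third set holds the ends of 4 introns that begin with ATATCCTT and end in AC, the letters of the minor class that a separate, rarer spliceosome removes. They lie in Ift80, a subunit of the intraflagellar transport complex (chr3:68990964-68994500, minus strand), Spc24, a kinetochore protein (chr9:21757395-21757684, minus strand), Sms, spermine synthase (chrX:157460417-157461175, minus strand), and E2f6, a repressive E2F factor (chr12:16820385-16822092, plus strand). The first 20 bases are given with the 8 searched letters in capitals, and the last 30 bases with the last 2 in capitals.
Ift80 intron 2, first bases: ATATCCTTtaaccctgtata
Ift80 intron 2, last bases: gctttacatctccttgacacgcagcatcAC
Spc24 intron 2, first bases: ATATCCTTtgctatgtccgg
Spc24 intron 2, last bases: tgtctgagccttggccttaacccagtgcAC
Sms intron 6, first bases: ATATCCTTtactgtataaga
Sms intron 6, last bases: cactcaaattttccttaaactgtttcggAC
E2f6 intron 6, first bases: ATATCCTTccatcagtacct
E2f6 intron 6, last bases: catcttgtcagatccttgaccaggtctcAC

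Across the series, 5868 to 6216 of the 7086 introns were listed in a library. The files hold FPKM without counts, so the depth behind each value is unknown. Yap1, the targeted gene with a value that bears on its label, was at 8.86, 8.68 and 8.33 FPKM in tKO, against 26.4, 25.2 and 27.9 FPKM in dKO and 23.2, 25.2 and 26.9 FPKM in WT. Stk4 and Stk3 were not called in either knockout at the exons that the gene value rests on, which check nothing about a deletion elsewhere in those genes. All 6 initial segment markers were listed, with summed levels of 1551 to 1853 FPKM in dKO, 4588 to 5544 FPKM in tKO and 6192 to 8379 FPKM in WT, and 5 of the 6 were lower in every dKO than in every WT library. In tKO, Lcn8 and Rnase10 were lower than in every WT library, and the others overlapped. Of 4 later-segment markers 3 were listed, with sums of 13980 to 15843 FPKM in dKO, 10976 to 14269 FPKM in tKO and 16594 to 18058 FPKM in WT. Among them Lcn5 and Gpx5 were lower in each dKO and each tKO than in each WT library, whereas Crisp1 was at 899 to 1082 FPKM in dKO, 191 to 333 FPKM in tKO and 67.6 to 351 FPKM in WT. The 3 smooth muscle markers summed to 533 to 627 FPKM in dKO, 604 to 914 FPKM in tKO and 673 to 1081 FPKM in WT, where Actg2 was lower in each dKO than in each WT library while Acta2 and Myh11 overlapped. The 3 basal cell markers summed to 84.6 to 89.6 FPKM in dKO, 46.9 to 82.8 FPKM in tKO and 98.9 to 109 FPKM in WT. Krt5 and Krt14 were lower in each tKO than in each WT library while Trp63 overlapped. In dKO only Trp63 was lower than in each WT library, and Krt5 and Krt14 overlapped. Of 3 narrow and clear cell markers 2 were listed, summing to 10.8 to 14.1 FPKM in dKO, 21.8 to 25.7 FPKM in tKO and 26.9 to 34.9 FPKM in WT. Only Car2 was lower in each dKO and each tKO than in each WT library, and Atp6v1b1 overlapped. The 3 endothelial markers summed to 16.8 to 19.7 FPKM in dKO, 22.2 to 27.1 FPKM in tKO and 22.8 to 24.8 FPKM in WT. Cdh5 and Tie1 were lower in each dKO than in each WT library, while Pecam1 overlapped. Macrophage, ciliated cell and red cell markers overlapped between dKO and WT in sum, and Foxi1 and Defb48 were listed in no library. Their part in the intron results was not tested, and in bulk tissue fewer cells of a type and less RNA per cell cannot be told apart.

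Most introns were kept at a low share. The median of the 3829 mean shares was 2.36%, 978 introns (25.5%) had a mean of 10% or more, and 317 (8.28%) had a mean of 50% or more. The retained form was never listed for 761 introns, and the spliced form was never listed for 81. Both forms were listed in all 9 libraries for 889. Nearly all were internal to the gene: 3569 (93.2%) interrupt coding sequence, 3668 are neither the first nor the last intron of their transcript, and 124 match no annotated intron. Of the 3829, 289 share the level of their retained form with another intron of the same locus, so they do not count as separate observations.

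Shares moved by a wide margin between libraries of the same genotype. In 209 introns (5.46%) the share spanned 50 points or more within a group, and 96 introns were at 0 in 1 library and at 50% or more in another of the same group. The median SD within groups was 9.52 points for introns with a mean share of 5 to 20%, 14.7 points for those at 20 to 50%, and 0.101 points for those at 95% or more. The correlation of shares across introns between library pairs, a description over introns that share depth and transcript models, was 0.874 to 0.894 within groups and 0.869 to 0.898 between groups. Libraries of 1 genotype were thus no closer to each other, by this measure, than to libraries of another.

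The introns with the highest shares were short, GC-rich and often part of an exon of an annotated protein-coding transcript. The 184 introns at a mean share of 95% or more had a median length of 149.5 bases, against 481 bases over all 3829, and 524 bases among the 1683 introns above 0 and up to 5%. Introns of GENCODE M21 coding transcripts that are neither first nor last have a median length of 1332 bases. Of the 184, 140 (76.1%) lay inside an exon of a protein-coding transcript, compared with 36.1% of the 133 introns at 50 to 95% and 4.34% of those above 0 and up to 5%. The median GC content was 56.7% at 95% or more and 50.2% above 0 and up to 5%, in the introns whose sequence an annotated transcript holds. Ends of GT and AG were found in 69.6% of the introns at 95% or more, 88.1% of those at 50 to 95% and 98.7% of those above 0 and up to 5%, and in 2262 of 2354 (96.1%) of all introns with sequence. Among introns of known frame, keeping the intron left the frame open, with a length that is a multiple of 3 and no stop, in 22 of 57 (38.6%) at 95% or more and in 2.95% of those above 0 and up to 5%.

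**Figure D1:**
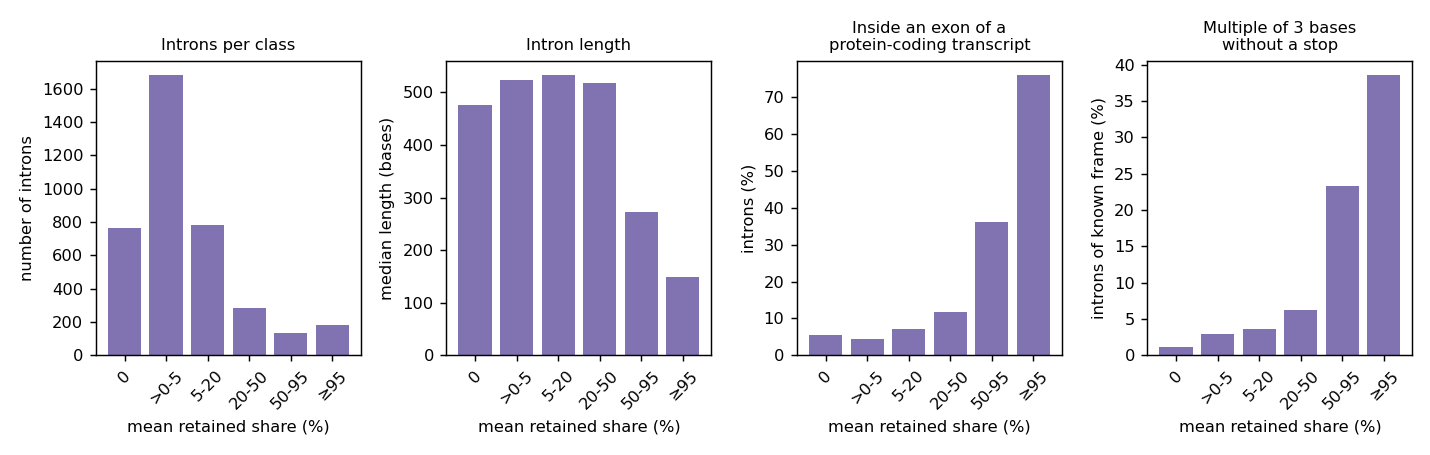
Number of introns, median length in bases, percentage inside an exon of a protein-coding transcript and percentage that keeps the reading frame, in 6 classes of mean retained share over 9 libraries. Bars start at 0; the class at 95% or more holds 184 introns, with a median length of 149.5 bases, and 76.1% of them lie inside such an exon.

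The highest retained FPKM belonged to stretches of this kind. Hsp90ab1 intron 3, 37 bases long and starting with GC, was at 529, 592 and 537 FPKM in its retained form in dKO, 537, 566 and 463 FPKM in tKO and 477, 530 and 446 FPKM in WT. Ftl1 intron 2, 69 bases, was at 382, 490 and 446 FPKM in dKO, 456, 405 and 374 FPKM in tKO and 522, 474 and 472 FPKM in WT. The Hsp90ab1 groups overlapped, the Ftl1 level was lower in each tKO than in each WT library, and the share was 100% in every library for both. Actb intron 3, 150 bases inside the coding sequence of beta-actin, was at 329, 292 and 358 FPKM in dKO, 241, 279 and 262 FPKM in tKO and 229, 226 and 251 FPKM in WT. Its dKO libraries lay above its WT libraries in level, with a share of 100% in all 9 and a log2 difference of the retained form of 0.47 (SE 0.27, adjusted p = 0.93, limma). Bsg intron 5 and Enpp5 intron 2 were likewise at 98.4 to 100% in every library.

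A few long introns reached high levels as well. Intron 11 of Ddx17, an RNA helicase that takes part in splicing, is 4042 bases long and lies in no annotated exon. Its share was 75.7, 75.2 and 69.0% in dKO, 71.2, 76.5 and 80.6% in tKO and 75.5, 77.8 and 72.9% in WT, and the groups overlapped. Intron 3 of Rsrp1, 1302 bases in a gene for an arginine- and serine-rich protein, was at 73.4, 60.7 and 69.8% in dKO, 70.7, 75.7 and 71.2% in tKO and 67.5, 60.1 and 73.9% in WT. Introns at 95% or more held 42.7 to 53.0% of all retained FPKM of a library, and the 15 introns with the highest levels held 29.0 to 36.2%. Of the introns at 95% or more, 76.1% lay inside an exon of a protein-coding transcript. The overall levels below thus count sequence annotated as exon among the retained forms.

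Introns with minor-class ends were rare, and their shares ran from 0 to 100%. Of the 2354 introns with sequence, 16 (0.680%) began with ATATCCTT or GTATCCTT, read at the first base of the intron on the transcribed strand. Among all 2354, 168 had a mean share of 95% or more and 517 were never listed as retained, and 25.5% of all 3829 introns had a mean of 10% or more. Of the 16, the mean share was 95% or more in 3 and under 10% in 10, and 4 were never listed as retained. The 3 were the AT-AC introns of Ift80, Spc24 and Sms printed above, at 100% in every library, and the AT-AC intron of E2f6 was at 0 in every library. These introns were picked out after their values were seen. Another AT-AC intron, in Rnf123, begins with ATATCATT and so is not among the 16.

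The overall level of retention differed little between genotypes. The mean share over the 3829 introns was 13.5, 12.8 and 12.5% in dKO, 12.9, 11.9 and 14.2% in tKO and 11.7, 12.1 and 12.6% in WT. Group means were 12.9% ± 0.495 in dKO, 13.0% ± 1.18 in tKO and 12.1% ± 0.498 in WT (SD, n = 3 each), and the groups overlapped. The difference was 0.811 points for dKO minus WT (exact permutation test over libraries, two-sided p = 0.2), 0.855 points for tKO minus WT (exact p = 0.4) and 0.0447 points for tKO minus dKO (exact p = 0.9). With 3 libraries against 3, the smallest p such a test can give is 0.1.

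Pooled over introns, so that introns of high level weigh more, the retained forms made up 11.5, 10.7 and 10.9% of the FPKM in dKO, 10.5, 10.2 and 12.5% in tKO and 9.97, 9.28 and 10.6% in WT. Every dKO library lay above every WT library, by a mean difference of 1.06 points (exact permutation p = 0.1, the smallest possible, adjusted p = 0.6 over 9 tests of the overall level). The tKO libraries overlapped with WT and with dKO, with differences of 1.13 points (exact p = 0.3) and 0.0695 points (exact p = 1.0). The summed FPKM of the retained forms averaged 7507 ± 288 in dKO, 7737 ± 822 in tKO and 7181 ± 372 in WT (SD, n = 3 each), with differences of 326 (dKO minus WT, exact p = 0.4), 556 (tKO minus WT, exact p = 0.4) and 230 FPKM (tKO minus dKO, exact p = 0.8). All 9 adjusted p-values were 0.6 or 1.0. The FPKM difference of dKO minus WT was 161 without dKO 1, 157 without WT 2 and 526 without WT 3, and that of tKO minus WT was 87.5 without tKO 3 and 854 without tKO 2.

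The separation of the pooled share in dKO did not hold when a few introns of secreted protein genes were left out. Without the introns of Lcn8, Lcn9 and Crisp4, the pooled share was 11.4, 10.7 and 10.9% in dKO, 10.6, 10.01 and 12.4% in tKO and 10.1, 10.05 and 11.3% in WT, so dKO and WT overlapped and differed by 0.505 points (exact permutation p = 0.3). These introns were left out together, and the part of each was not tested. Among them Crisp4 was hardly retained. Lcn8 was at 710 to 921 FPKM in dKO and 3675 to 5470 FPKM in WT, and its retained form was not listed in WT 2 or WT 3. With these introns left out, the pooled share of WT 2 went from 9.28 to 10.05%, while the retained forms of that library summed to 6843 FPKM either way. The separation also did not hold without the introns at 95% or more, with 6.30, 5.33 and 5.65% in dKO, 5.61, 5.22 and 7.58% in tKO and 5.11, 4.69 and 5.61% in WT. The tKO differences depended on single libraries. Without tKO 3, the library with the most introns retained (2065, against 1749 to 1922 in the other 8), the difference of tKO minus WT was 0.238 points in mean share and 0.418 points in pooled share, and without tKO 2 it was 1.41 points in mean share. Without dKO 1, the difference of dKO minus WT in mean share was 0.538 points. tKO 3 was also the highest of the 9 libraries in the retained share of events in which several neighbouring introns are kept (14.6%).

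**Figure D2:**
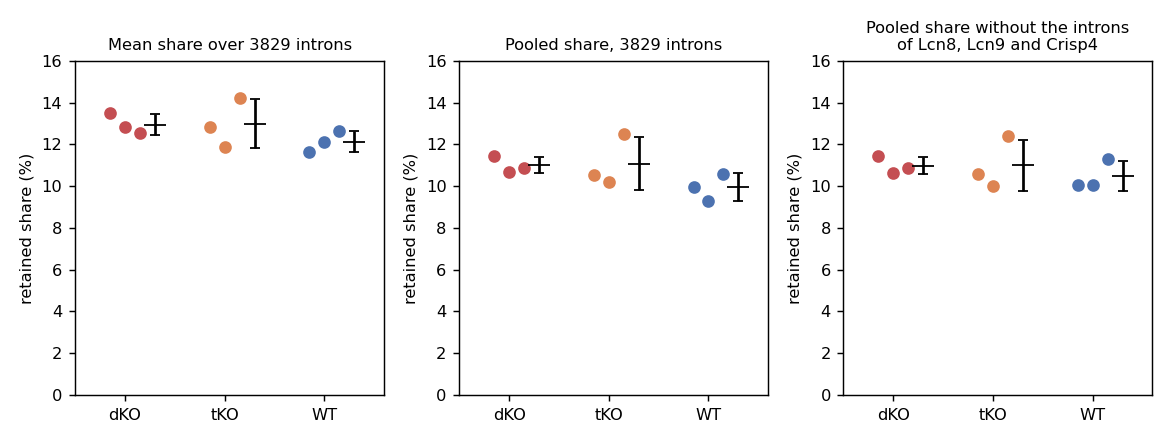
Retained share in percent for each library, as the mean over 3829 introns, pooled over the FPKM of the same introns, and pooled without the introns of secreted proteins; points are libraries in dKO, tKO and WT, and the black marks are the mean ± SD of 3. In the middle panel the dKO libraries (10.7 to 11.5%) lie above the WT libraries (9.28 to 10.6%), and in the right panel they overlap.

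For single introns, the comparison of dKO with WT gave no call on the retained share. None of 3829 introns (0%) passed an adjusted p of 0.05 in limma, 113 had an unadjusted p under 0.05, and the smallest adjusted p was 0.41. The 3829 include 781 introns with the same share in all 9 libraries, which could not be called or separate in any comparison. The 3 dKO and 3 WT libraries did not overlap in 99 introns where dKO was higher (2.59%) and 81 where dKO was lower (2.12%). For a single intron, such a separation can reach no lower than a two-sided p of 0.1 in a permutation of 3 against 3 libraries. In all 3 comparisons, it therefore marks no intron out on its own. The median difference was 9.83 points among the 99 and -6.73 points among the 81, and 19 of the 99 and 9 of the 81 differed by 20 points or more. The introns described next are those with the largest differences among them, so the size of the differences is a description of how they were chosen.

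Ankrd10 intron 3 (chr8:11619298-11628438, minus strand, 9141 bases), in a gene for an ankyrin repeat protein, had the smallest p. Its share was 55.5, 58.4 and 50.7% in dKO, 49.1, 53.3 and 45.4% in tKO and 28.3, 29.5 and 20.4% in WT. All 6 knockout libraries lay above the 3 WT libraries, by 28.9 points in dKO (SE 3.63, unadjusted p = 0.00011, adjusted p = 0.41) and 23.2 points in tKO (unadjusted p = 0.0004, adjusted p = 0.65). A shorter intron nested in its end, 964 bases long, has the same retained form and is no second observation.

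Mcm9 intron 7 lies in a gene for a helicase of DNA repair, and its share was 19.4, 100 and 100% in dKO, 40.8, 86.5 and 100% in tKO and 0% in all 3 WT libraries. Its summed level was 1.13 to 3.29 FPKM throughout. Mau2 intron 13, in the gene of a cohesin loading factor, was at 66.2, 70.8 and 73.1% in dKO, 63.4, 63.0 and 75.5% in tKO and 23.5, 45.1 and 0.142% in WT, and here too both knockouts lay above WT. The printed intron of Rgl3, which encodes an exchange factor of Ral GTPases, was at 64.4, 73.2 and 16.01% in dKO, 29.4, 69.6 and 9.96% in tKO and 4.44, 0.260 and 0.240% in WT. Its level in the retained form was 4.88, 6.29 and 1.07 FPKM in dKO and 0.230, 0.0142 and 0.0154 FPKM in WT.

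Some introns had their highest mean share in dKO. Intron 14 of Dnm1l, the GTPase of mitochondrial fission, was at 67.3, 66.4 and 56.4% in dKO, 39.4, 11.8 and 39.7% in tKO and 30.9, 31.0 and 30.9% in WT. Its dKO libraries lay above the other 6, with a difference from WT of 32.5 points (SE 7.73, unadjusted p = 0.0042, adjusted p = 0.95). Srsf11 intron 5, in an SR protein gene, was at 61.4, 58.2 and 54.8% in dKO, at 0, 53.1 and 0% in tKO and at 0, 28.3 and 0% in WT. Idh3g intron 7, in the gene of a subunit of mitochondrial isocitrate dehydrogenase, was at 73.3, 25.8 and 10.9% in dKO, 24.5, 17.9 and 14.3% in tKO and 7.13, 5.30 and 10.7% in WT. The lowest dKO library exceeded the highest WT library there by less than 1 point. The 3 tKO libraries also lay above WT and overlapped with dKO.

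Among introns lower in dKO, Fubp1 intron 19 led. The gene encodes a regulator of Myc transcription that binds single-stranded DNA, and the share was 13.4, 3.88 and 0.0033% in dKO, 44.8, 27.5 and 0.0048% in tKO and 48.4, 49.9 and 59.5% in WT. The difference of dKO minus WT was -46.8 points (SE 10.99, unadjusted p = 0.0039, adjusted p = 0.95), and both knockouts lay below WT. The printed intron of Chkb, choline kinase beta, was at 11.2, 43.1 and 48.7% in dKO, 93.2, 84.5 and 65.3% in tKO and 79.1, 80.1 and 61.1% in WT. Its dKO libraries lay below the other 6, and tKO and WT overlapped.

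Donson intron 6, printed above, is in a gene needed for DNA replication. Its share was 14.3, 0 and 12.3% in dKO, 22.3, 2.22 and 9.02% in tKO and 43.0, 35.9 and 24.7% in WT, with sums of 1.62 to 4.19 FPKM. Tmem87b intron 5 was at 0, 31.2 and 28.4% in dKO, 48.9, 51.7 and 66.2% in tKO and 73.9, 47.7 and 74.1% in WT, so its dKO libraries were the lowest. Zfp692 intron 6, in a zinc finger gene, was at 83.7, 59.6 and 52.1% in dKO, 83.1, 67.6 and 99.7% in tKO and 88.4, 92.0 and 93.3% in WT. Cnot3 intron 11, in the gene of a deadenylase complex subunit, was among the 10 largest on 1 library only, with 98.3% in WT 2 and under 0.2% in WT 1, WT 3 and all dKO libraries.

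The comparison of tKO with WT also gave no call on the share: 0 of 3829 introns (0%), with 131 at an unadjusted p under 0.05 and a smallest adjusted p of 0.19 in limma. The groups did not overlap in 108 introns where tKO was higher (2.82%) and 81 where tKO was lower (2.12%), with median differences of 11.7 and -4.66 points. Of the 108, 27 were at 0 in all 3 WT libraries and 27 differed by 20 points or more. The dKO and tKO comparisons share the WT libraries, so introns that stand out in both are no independent repeat.

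Fam98c intron 6 (chr7:29153490-29154418, minus strand, 929 bases) had the smallest p. Its share was 17.6, 30.7 and 21.8% in dKO, 0.0318, 0.0808 and 0.0383% in tKO and 57.1, 42.6 and 42.6% in WT. The 3 groups did not overlap with one another. The difference from WT was -24.0 points in dKO (unadjusted p = 0.0028, adjusted p = 0.95) and -47.4 points in tKO (SE 5.28, unadjusted p = 4.9e-05, adjusted p = 0.19), while the sum of both forms was 2.56 to 5.60 FPKM throughout. It passed at an adjusted p of 0.037 for tKO minus WT when the test was limited to introns with both forms listed in every library.

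Several introns higher in tKO were unlisted as retained in WT. Cfap65 intron 11, in a gene for a protein of sperm flagella, was at 54.8, 34.3 and 59.2% in tKO, at 21.97, 0 and 0% in dKO and at 0% in all WT libraries. Mtx3 intron 7, in a gene for an outer mitochondrial membrane protein, was at 43.6, 39.4 and 66.5% in tKO, at 25.9, 0 and 22.05% in dKO and at 0% in WT. Pld2 intron 20, in the phospholipase D2 gene, was at 39.6, 27.6 and 62.4% in tKO, at 0, 30.9 and 30.4% in dKO and at 0% in WT. In all 3, each tKO library lay above each WT library, and dKO, with at least 1 library at 0, overlapped with WT.

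Lower in tKO were introns of genes with varied roles. Intron 4 of Sf3b1, the spliceosome subunit that recognises the branch site, was at 0.219, 0.187 and 0.220% in tKO, 0.209, 0.278 and 28.8% in dKO and 25.4, 19.1 and 18.7% in WT. The tKO libraries lay below WT, and dKO was split, with 2 libraries at the tKO level and dKO 3 above WT. The printed intron of Arrdc1, an arrestin-domain protein, was at 0, 0 and 9.07% in tKO, 0, 0 and 11.8% in dKO and 10.3, 35.9 and 39.8% in WT. Skiv2l intron 14, in the gene of a helicase that works with the RNA exosome, was at 5.51, 7.01 and 2.86% in tKO, 18.5, 26.5 and 2.03% in dKO and 40.7, 22.4 and 11.9% in WT. Intron 8 of Akr1c19, an aldo-keto reductase gene, was at 25.8, 49.0 and 77.1% in tKO, 66.0, 90.4 and 77.3% in dKO and 95.7, 82.4 and 94.2% in WT.

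**Figure D3:**
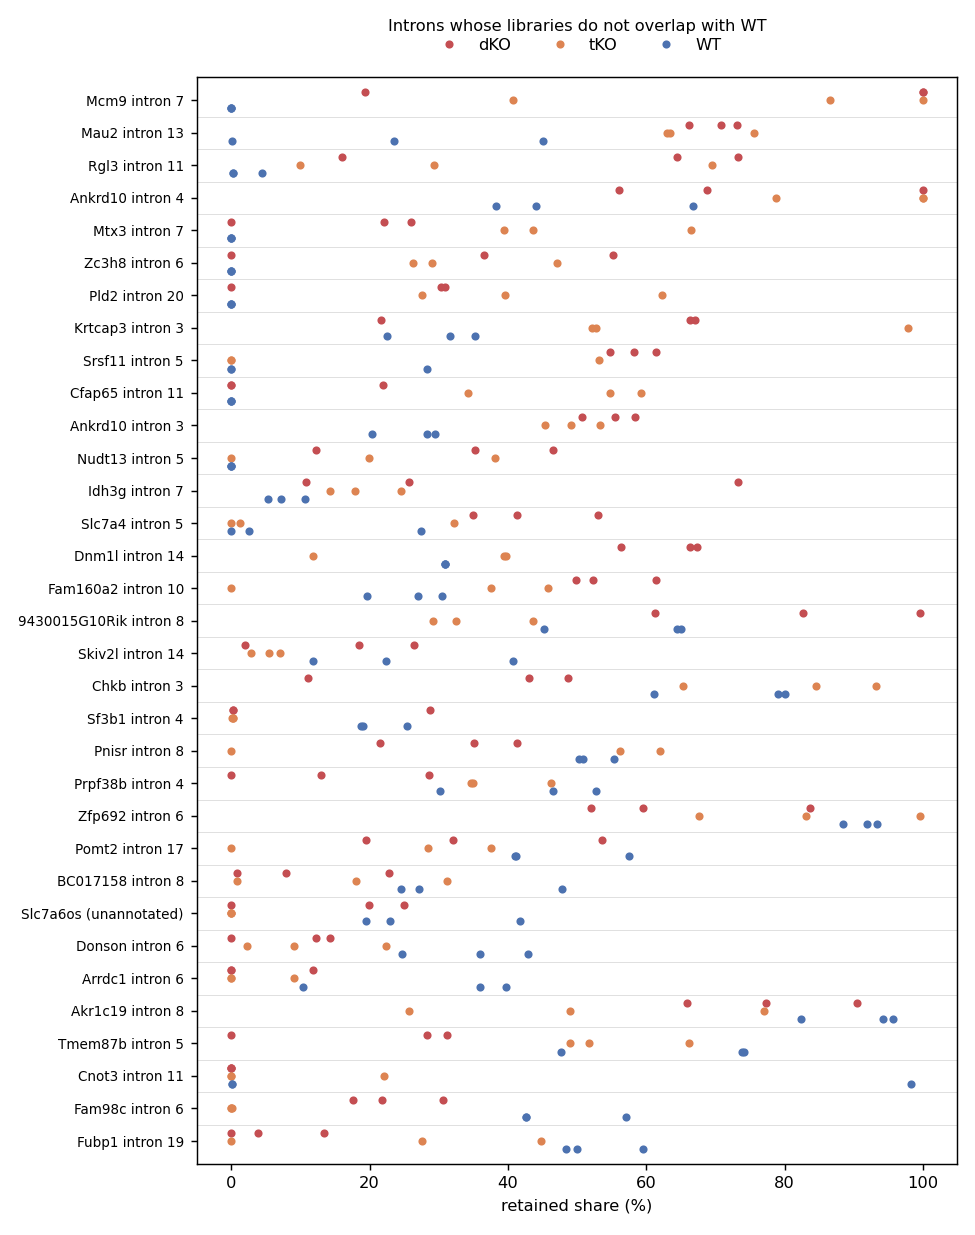
Retained share in percent of introns whose dKO or tKO libraries do not overlap with the WT libraries, drawn from the 10 largest differences in each direction and comparison; each point is a library, with dKO above tKO above WT within an intron. Mau2 intron 13 shows both knockouts above WT (63.0 to 75.5% against 0.142 to 45.1%), and Fubp1 intron 19 both below WT.

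Between tKO and dKO no intron was called either (0 of 3829, 0%, limma; 143 at an unadjusted p under 0.05, smallest adjusted p of 0.85). tKO was higher in 83 introns without overlap (2.17%) and lower in 100 (2.61%), with median differences of 10.8 and -4.19 points. The largest of all was intron 5 of Hdac1, a histone deacetylase gene, at 0% in all 3 tKO libraries, 100% in all 3 dKO libraries and 0, 100 and 100% in WT. Its WT libraries were split between the levels of the other groups, and its summed level was 11.9, 16.7 and 16.1 FPKM in tKO, 15.1, 13.5 and 19.1 FPKM in dKO and 15.4, 7.83 and 3.39 FPKM in WT. It passed for tKO minus dKO only when those groups were fitted without WT (adjusted p = 8.5e-05) and when WT 1 was left out (adjusted p = 4.9e-08). In both fits each group stood at 0% or at 100% in all its libraries. No spread within groups was left for this intron, so these limma p-values rest on the spread taken from other introns.

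The printed intron of Tap2, the peptide transporter of antigen presentation, was at 26.05, 53.8 and 32.9% in tKO, at 0% in all dKO libraries and at 30.2, 44.9 and 0% in WT. Ccnl2 intron 5, in the gene of a cyclin that takes part in splicing, was at 98.0, 77.1 and 50.2% in tKO, 46.8, 31.0 and 14.7% in dKO and 99.7, 39.4 and 63.5% in WT. In the other direction, Metap1d intron 3, in the gene of a mitochondrial methionine aminopeptidase, was at 5.72, 24.3 and 32.3% in tKO, 88.4, 48.6 and 96.2% in dKO and 64.1, 0.957 and 52.6% in WT. Slc25a22 intron 5, in a mitochondrial glutamate carrier gene, was at 0.736, 7.15 and 21.7% in tKO, 60.7, 46.6 and 55.6% in dKO and 66.4, 17.9 and 33.8% in WT. WT overlapped with tKO, dKO or both in each of these.

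Calls on the share were few with any 1 library left out. In dKO against WT, limma called 5 introns without dKO 1, 5 without dKO 2, 6 without dKO 3, 3 without WT 1, 2 without WT 2 and 4 without WT 3. In tKO against WT it called 5, 3 and 5 without tKO 1, 2 and 3, and 4, 2 and 3 without WT 1, 2 and 3. In tKO against dKO it called 5, 3 and 3 without tKO 1, 2 and 3, 5, 5 and 6 without dKO 1, 2 and 3, and 1 without WT 1. One of these was Tra2a intron 6, in an SR-related gene, lower by 100 points in dKO when WT 1, at 0%, was left out and WT 2 and WT 3 stood at 100%.

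Retained forms and spliced forms were also tested as levels. The retained form was called for 1 intron in dKO against WT (0.0261%), with 167 at an unadjusted p under 0.05. It was Bglap3 intron 2, in an osteocalcin-related gene, at 7.86, 7.998 and 6.28 FPKM in dKO, 17.3, 13.1 and 16.03 FPKM in tKO and 24.6, 36.8 and 29.4 FPKM in WT, a log2 difference of -1.89 for dKO minus WT (SE 0.17, adjusted p = 0.042). Its share was 95.2 to 100% throughout, and Bglap3 as a whole gene fell in dKO by 2.02 on the log2 scale. The count was 6 without dKO 1, 7 without dKO 3, 4 without WT 1, and 0 without WT 2, WT 3 or any tKO library. No retained form was called in tKO against WT (0%, with 160 at an unadjusted p under 0.05) or in tKO against dKO (0%, with 176).

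The sum of both forms followed the genes. In dKO against WT, 16 introns were called higher (0.418%) and 32 lower (0.836%), in 38 genes, next to 177 of 12103 genes called higher (1.46%) and 284 lower (2.35%). Of the 48 introns, 39 lie in genes called themselves, 10 were never listed as retained, and 3 had shares that did not overlap between dKO and WT. In tKO against WT, 4 were higher and 4 lower (0.104% each), and in tKO against dKO 6 were higher (0.157%) and 1 lower (0.0261%). At the gene level, 10 genes were called higher and 10 lower in tKO against WT (0.0826% each), and 150 higher (1.24%) and 105 lower (0.868%) in tKO against dKO. The count for dKO against WT fell to 18 without dKO 3, 19 without dKO 2, 22 without WT 2 and 23 without WT 3. For tKO against WT it was 0 without WT 1, 1 without dKO 2 or dKO 3, 2 without tKO 3 or WT 3, 3 without dKO 1 and 5 without tKO 2. For tKO against dKO it was 14 without dKO 1, 11 without tKO 1, 2 without dKO 2 or WT 3, and 3 without dKO 3 or WT 2.

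Lcn8 intron 3 (chr2:25654816-25655114, plus strand, 299 bases) showed the largest fall in the sum. The gene encodes an epididymal lipocalin, a secreted carrier of small lipophilic molecules, and the sum was 921, 710 and 795 FPKM in dKO, 3019, 2365 and 2669 FPKM in tKO and 3675, 5470 and 4396 FPKM in WT. It fell in dKO by 2.47 on the log2 scale relative to WT (SE 0.17, adjusted p = 0.00043), as did the gene. The retained form was at 135, 98.9 and 117 FPKM in dKO, 290, 404 and 436 FPKM in tKO and 365, 0 and 0 FPKM in WT. The share was therefore 14.6, 13.9 and 14.8% in dKO, 9.60, 17.1 and 16.3% in tKO and 9.92, 0 and 0% in WT, higher in each dKO than in each WT library by a mean of 11.1 points (unadjusted p = 0.025, adjusted p = 0.95). A level of 0 in WT 2 and WT 3 beside 365 FPKM in WT 1 may be a form that the estimate did not list.

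**Figure D4:**
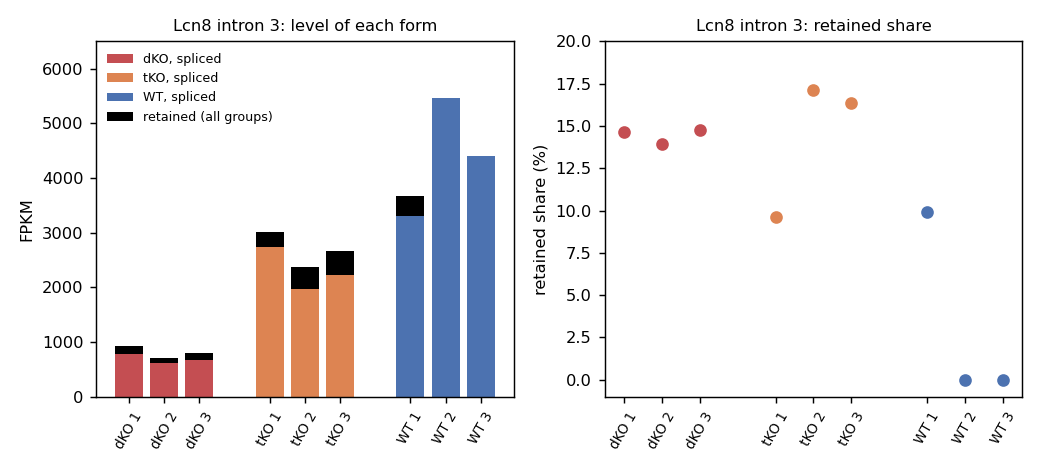
Lcn8 intron 3 by library, with dKO left of tKO left of WT: left, FPKM of the spliced form (coloured) with the retained form (black) stacked on it; right, the retained share in percent. The sum is 710 to 921 FPKM in dKO against 3675 to 5470 FPKM in WT, and the share in WT is 9.92% in WT 1 and 0% in WT 2 and WT 3.

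Other introns with changed sums belong to genes of varied function. The sum at intron 5 of Crisp4, a secreted protein that coats sperm, was 8.64, 11.8 and 7.89 FPKM in dKO, 45.8, 39.0 and 32.4 FPKM in tKO and 39.0, 46.3 and 40.8 FPKM in WT, a fall in dKO by 2.06 on the log2 scale (SE 0.18, adjusted p = 0.0011) with a share under 0.02% in every library. At intron 8 of Etv4, an ERK-induced transcription factor, it was 9.13, 6.72 and 7.73 FPKM in dKO, 16.4, 26.1 and 23.2 FPKM in tKO and 26.1, 32.5 and 23.5 FPKM in WT (log2 difference of dKO minus WT -1.67, adjusted p = 0.0047), while shares of 12.2 to 55.001% overlapped between groups. Rhbdl1 intron 3, in a rhomboid protease gene, was at 16.9, 13.5 and 19.5 FPKM in dKO, 16.3, 12.2 and 17.4 FPKM in tKO and 3.92, 3.67 and 3.92 FPKM in WT. It was called higher in both knockouts, by 1.85 in dKO (adjusted p = 0.0013) and 1.74 in tKO (adjusted p = 0.012, not called without WT 1), and its retained form was listed in 1 library only, dKO 2.

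Tle2 intron 6, in the gene of a Groucho-type corepressor, had a sum of 1.41, 1.47 and 1.46 FPKM in dKO, 1.29, 1.75 and 1.82 FPKM in tKO and 4.47, 4.32 and 6.48 FPKM in WT. Both knockouts were called lower, by -1.30 in dKO (adjusted p = 0.0068) and -1.20 in tKO (adjusted p = 0.031, not called with any 1 library left out). Its share was 99.8 to 100% in dKO, 99.2 to 100% in tKO and 47.4, 99.8 and 63.5% in WT. Fxyd2 intron 4, in the gene of a sodium pump regulator, was never listed as retained, and its spliced form was at 7.85, 11.6 and 8.94 FPKM in tKO against 2.87, 2.97 and 1.78 FPKM in WT (log2 difference 1.57, adjusted p = 0.024). That call was lost without dKO 2, dKO 3, tKO 3, WT 1 or WT 3, each left out in turn.

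Shares were high in the genes of SR proteins, which bind exons and recruit the spliceosome. Of 28 introns in SR protein genes, 18 (64.3%) had a mean share of 10% or more, with a median of 27.6%, beside 25.5% and 2.36% over all 3829 introns. The 16 introns of splicing kinase genes had 7 at 10% or more and a median of 7.25%, and the 28 of hnRNP genes 11 and a median of 5.04%. The 23 introns of major spliceosome genes had 7 and a median of 2.76%, the 5 of minor spliceosome genes 0, and the 11 of genes for nonsense-mediated decay and the nuclear exosome 4, with a median of 1.22%. A list of chromatin and RNA-binding genes known for regulated introns in other tissues held 28 introns, 13 of them at 10% or more, with a median of 7.95%. The lists were not tested against other introns.

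**Figure D5:**
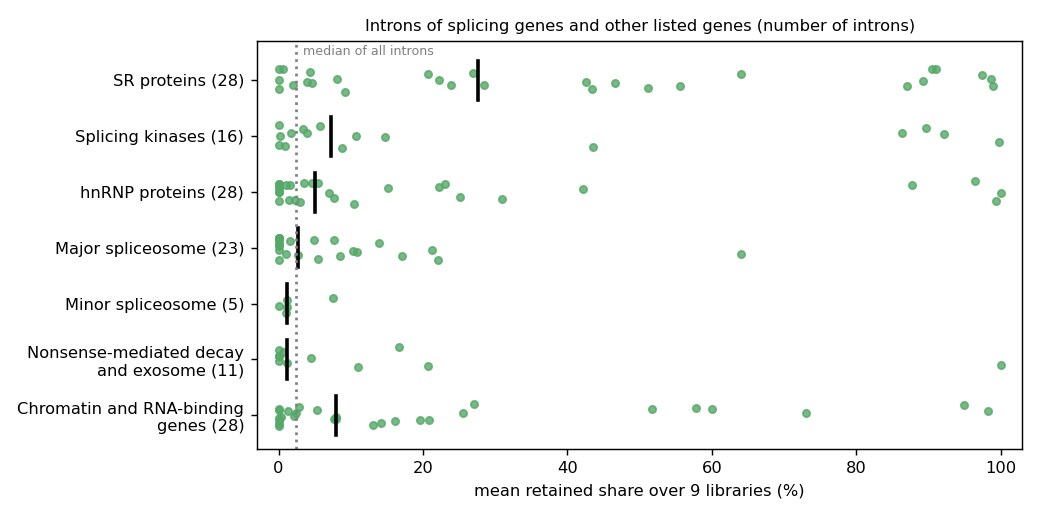
Mean retained share in percent of each kept intron, grouped by the function of its gene; points are introns, black bars the median of each list, and the dotted line the median of all 3829 introns. SR protein genes have a median of 27.6%, against 2.36% over all introns.

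Several SR protein introns had high shares in all genotypes. Srsf3 intron 3 (chr17:29038625-29039453, plus strand, 829 bases) was at 70.8, 68.2 and 75.0% in dKO, 61.0, 60.3 and 72.4% in tKO and 59.1, 54.3 and 54.6% in WT. Both knockouts lay above WT, by 15.4 points in dKO (SE 3.63, unadjusted p = 0.004, adjusted p = 0.95) and 8.59 points in tKO (unadjusted p = 0.05, adjusted p = 0.91). Srsf7 intron 3, printed above, was at 88.8, 100 and 79.7% in dKO, 80.2, 80.3 and 100% in tKO and 90.1, 100 and 100% in WT. Srsf5 intron 6 was at 51.1, 46.4 and 54.0% in dKO, 42.2, 46.7 and 46.6% in tKO and 47.5, 20.05 and 64.6% in WT, and the groups of Srsf7 and Srsf5 overlapped. Over the 28 SR introns, the share did not overlap in 2 higher and 1 lower in dKO against WT (2.59% and 2.12% of all 3829 introns), and in 2 higher and 0 lower in tKO against WT (2.82% and 2.12% of all).

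The kinase genes that act on SR proteins showed the same mixture. Clk1 intron 3, 1349 bases in the 11-intron transcript, was at 46.6, 47.0 and 37.8% in dKO, 49.2, 31.6 and 37.9% in tKO and 49.2, 44.5 and 47.5% in WT. Clk3 intron 4 was at 98.1 to 100% in all libraries. Clk4 intron 3 was at 100, 77.2 and 0% in dKO and at 100% in all tKO and WT libraries, a spread within dKO as wide as the scale. Among hnRNP genes, Hnrnph1 intron 6 was at 24.1, 22.8 and 33.7% in dKO, 21.4, 20.9 and 30.3% in tKO and 9.75, 17.3 and 19.2% in WT, with all 6 knockout libraries above WT. Of the 28 hnRNP introns, which lie in 11 genes, 1 was higher and 1 lower without overlap in dKO against WT (2.59% and 2.12% of all 3829 introns). In tKO against WT, 4 of the 28 were higher and 0 lower (2.82% and 2.12% of all), and this was not tested against other introns.

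A pair of further introns lie in genes known from other tissues for regulated retention. Intron 5 of Ogt, the enzyme that attaches O-GlcNAc to proteins, was at 72.9, 54.2 and 49.3% in dKO, 52.5, 53.6 and 83.2% in tKO and 52.7, 59.0 and 62.7% in WT. Intron 6 of Ddx39b, a helicase of splicing and RNA export, was at 72.9, 67.4 and 59.3% in dKO, 71.2, 64.0 and 72.6% in tKO and 43.0, 67.1 and 58.5% in WT. Groups overlapped for both.

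Hippo pathway genes held few kept introns. None of the 3829 lies in Stk4, Stk3 or Yap1. Of 23 listed pathway genes, Tead3 and Ccn2 had 1 each. Intron 4 of Tead3, a DNA-binding partner of Yap, was at 40.7, 100 and 32.4% in dKO, 100, 49.4 and 98.6% in tKO and 100, 98.1 and 52.3% in WT, with overlap among all groups, and the Ccn2 intron was at 0 in every library. At the gene level, 5 of 21 tested pathway genes were called higher and 0 lower in dKO against WT, beside 1.46% and 2.35% of all 12103 genes, among them Ccn1, a Yap target gene for a secreted matrix protein, at 6.03, 6.73 and 6.83 FPKM in dKO, 3.47, 5.26 and 4.01 FPKM in tKO and 3.77, 2.62 and 2.605 FPKM in WT (log2 difference 0.92, SE 0.17, adjusted p = 0.022, limma). In tKO the one call against WT was Yap1 itself, lower by -1.44 (adjusted p = 0.00024).

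The genes that act in splicing and RNA surveillance were themselves not called in any comparison. Of 109 such genes in 6 lists with a gene value of 1 FPKM or more in 3 libraries, limma called 0 in dKO against WT, 0 in tKO against WT and 0 in tKO against dKO, with 13, 3 and 7 at an unadjusted p under 0.05. Over all 12103 genes, 461, 20 and 255 were called in the same order of comparisons, and 2239, 1603 and 2019 had an unadjusted p under 0.05. The median log2 difference of the 109 was 0.10 in dKO against WT and 0.09 in tKO against WT, beside 0.03 and 0.04 over all 12103 genes. The smallest adjusted p was 0.06, for Clk3 in dKO against WT, at 5.36, 6.19 and 8.09 FPKM in dKO, 9.06, 11.4 and 7.82 FPKM in tKO and 12.4, 12.8 and 9.70 FPKM in WT. Sf3b1 differed from WT by -0.50 in dKO (adjusted p = 0.14) and -0.56 in tKO (adjusted p = 0.22) on the log2 scale.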

How the data were processed

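RNA-seq of 3 dKO, 3 tKO and 3 WT initial segments was deposited by the authors as per-library event tables with FPKM, per the file headers; no source used here gives the aligner, genome build or event caller. DESeq and bcl2fastq 2.17.1.14 appear in the submitters' processing notes. Each library's retained and spliced rows were paired by gene, strand and ends, rows of the same form and ends were summed, and unlisted forms were read as 0. Introns with a sum of 1 FPKM or more in all 9 libraries were kept. Introns were placed on GENCODE M21. Shares in percent, and log2(FPKM + 1) of the retained form, of the sum and of 12103 genes (first- or last-exon events, 1 FPKM or more in 3 libraries), were fitted with limma 3.58.1 with trend (R 4.3.3) on all 9 libraries, with Benjamini-Hochberg adjustment over all features and a threshold of 0.05. Differences on the log2(FPKM + 1) scale understate changes of low forms. Overall levels were compared by exact two-sided permutation over libraries. The fits were tested on simulated data. Introns named are those called, the 10 largest differences per direction among those without overlap, the 15 highest in share and in level, introns of the listed genes and of Stk4, Stk3 and Yap1, and introns at filter edges; others were named after their values were seen. One intron that this rule names is not reported here. Introns and lists were chosen with earlier results of these data known. Alternatives were other filters, pseudocounts, fits and left-out libraries. Tables were read with Python 3.11.15, pandas 2.3.3 and numpy 2.4.6.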

Additional observations from a re-analysis of the deposited data

How the results depend on the processing

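Shares gave few calls under any setting. With log2 of the ratio of both forms in place of the share, limma called 9, 0 and 1 introns (dKO against WT, tKO against WT, tKO against dKO) at a pseudocount of 1, and 9, 1 and 5 at 0.1. Among those at 1 in dKO against WT, both Acap1 introns, Sema3b intron 14 and Slc1a1 intron 3 were never listed as retained. Their ratio moves only with the spliced form: differences of 1.49, 1.55 and 0.984 stood beside differences of the sum of -1.49, -1.55 and -0.984. Crisp4 intron 5, hardly retained, likewise had 2.06 beside -2.06. Limited to introns with both forms listed in every library, limma called 1 in tKO against WT (Fam98c), and with 2 groups fitted alone 1 in tKO against dKO (Hdac1). The retained form gave 3, 2 and 1 calls at a pseudocount of 0.1 and 0 in dKO against WT with all sums above 0 admitted. Among splicing and RNA surveillance genes, upper quartile scaling called 1, Clk3, in dKO against WT. Of the overall level, tKO minus dKO turned to -0.0348 points of mean share and -11.2 FPKM of retained forms where both forms were listed, and to -29.8 FPKM without the secreted protein introns. The cause was not tested for these changes.

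Leaving out 1 library gave 0 to 6, 0 to 5 and 0 to 6 calls on the share (in the same order of comparisons), 0 to 7, 0 to 6 and 0 to 6 on the retained form, 18 to 47, 0 to 8 and 2 to 14 on the sum, and 0 to 1 among splicing and surveillance genes in tKO against dKO. Differences of tKO minus dKO ran from -0.573 to 0.597 points in mean share, from -0.647 to 0.501 points in pooled share and from -239 to 527 FPKM in retained forms. Differences from WT kept their direction throughout.

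No source used here states whether the library numbers pair the samples. Deviations of same-numbered libraries correlated at -0.0452 to 0.0346, and those of differently numbered libraries at -0.0706 to 0.0505. These shares vary widely between libraries, so the check shows no sign of a pairing but cannot exclude it. With a replicate block, the share gave 0 calls in each comparison, the retained form 0 in dKO against WT, and the sum 20, 1 and 1. Without the block the sum gave 48, 8 and 7.

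Depth cannot be read from FPKM, so no interval for counting error is given, and whether an unlisted form at 0 is a failed estimate was not tested. Introns below 1 FPKM in any library were not tested, and 289 introns share a retained form with another.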
